A study of Mus musculus with 12 samples.

Results

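The strain-by-treatment interaction of anti-CD45RB was measured in purified CD4+ T cells as the treatment difference in SLE123 mice minus the treatment difference in B6 mice, on the log2(FPKM + 1) scale. All 12 libraries of the series entered a single fit of 4 groups with 3 mice each, and of the 35275 genes in the table, 13115 had a mean of at least 0.5 FPKM and were tested. B6 mice were of the C57BL/6 strain, and SLE123 mice were of the congenic strain B6.NZMSle1/Sle2/Sle3, in which the Sle1, Sle2 and Sle3 regions of a lupus-prone strain sit on the B6 background. Treated mice of either strain received 100 μg of the anti-CD45RB clone MB23G2 per injection, with 5 injections by the intraperitoneal route and the last on day 7, and untreated mice had no treatment and no control antibody in the labels. The methods give an age of 9 weeks for the mice of the RNA-Seq, and the figure legend gives female mice of 9 to 12 weeks. CD4+ T cells were obtained by negative magnetic sorting, and poly-A RNA of each mouse was sequenced as 1 library. The methods also mention a sort into CD25+ and CD25- cells, a fraction that the labels do not name.

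CD45 is a receptor tyrosine phosphatase of all nucleated hematopoietic cells that acts on Src family kinases of the antigen receptor pathway, and CD45RB names the isoforms that include the B exon. Antibodies against CD45RB prolong graft survival in normal mice, and lupus-prone strains resist this effect, which is why the responses of the strains were compared. An interaction is positive where the treated-minus-untreated difference is higher in SLE123 than in B6, and negative where it is lower. It can come from a response in a single strain, from responses in opposite directions, or from responses of unequal size in the same direction.

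Libraries of the 4 groups differed in ways that bear on every value below. Totals were 13562933 to 23641603 fragments a library, so that 0.0634 to 0.111 FPKM is what 3 fragments amount to for a transcript 2000 bases long, a floor for counting error only. Immunoglobulin genes took 0.0895 to 0.336% of the fragments in B6 mice, 2.51 to 5.38% in treated SLE123 mice and 5.06 to 12.2% in untreated SLE123 mice. The 3 untreated SLE123 mice were the most unlike each other, with a median SD across genes of 0.17 on the log2 scale against 0.0772 to 0.0809 in the other groups. Treated SLE123 replicates 2 and 3 differed less than any other pair of a group (chi-square per gene of 2.42 against 3.24 to 77.0), though by more than sampling noise. Their use of immunoglobulin V genes correlated at 0.995, against 0.777 to 0.928 in the other pairs. Whether these libraries are independent of each other was not tested. Transcripts of liver were present in all 6 B6 mice and in treated SLE123 replicate 1, where the mean of a list of 26 liver genes was 1.49 to 1.66 on the log2(FPKM + 1) scale, and near 0 in the other SLE123 mice. The part of these differences in the results was not tested. P-values rest on a single estimate of the spread between mice for each gene, shared by the 4 groups. They do not measure the spread of any group by itself. Values are given below in the order of replicate number, which is 3, 4 and 5 for untreated B6, 1, 3 and 5 for treated B6, and 1, 2 and 3 for both SLE123 groups.

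The interaction passed the threshold of an adjusted p of 0.05 (limma, Benjamini-Hochberg) for 478 of the 13115 genes, or 3.64%. It was negative for 312 genes (2.38% of those tested) and positive for 166 genes (1.27%). Counts of calls on the gene lists below stand against the 3.64%. At an unadjusted p under 0.05 there were 3298 genes (25.1%). When FPKM values were centred on the median log-ratio of each library, 92 of 448 calls were positive, a share of 20.5% against 34.7% on the values as deposited, and the share was 22.1% (61 of 276) when FPKM was rescaled to the sum without immunoglobulin genes. Rescaling to TPM moved the median interaction of all genes from 0.043 to 0.23, while 171 of 430 calls were positive on that scale.

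A strain was said to move for a gene where its 3 treated and 3 untreated mice did not overlap and its own contrast had an unadjusted p under 0.05. By that rule 182 of the 478 genes moved in opposite directions, which is 38.1% of the calls, and 239 (50%) moved in B6 alone. There were 50 genes (10.5%) that moved in SLE123 alone and 7 that moved the same way in both strains by unequal amounts. A gene that moved in a single strain can still have differed in the other, even without overlap, at an unadjusted p of 0.05 or more. Across all genes tested, 2.03% moved in opposite directions and 1.81% in the same direction, 10.7% moved up and 9.13% moved down in B6, and 10.3% moved up and 3.98% moved down in SLE123. The classes of called genes follow in part from the call itself, since a large difference between strains needs at least 1 strain to move. A further 189 genes (1.44%), 163 of them up and 26 down, moved the same way in both strains, passed the test of the mean effect and were not called for the interaction.

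**Figure D1:**
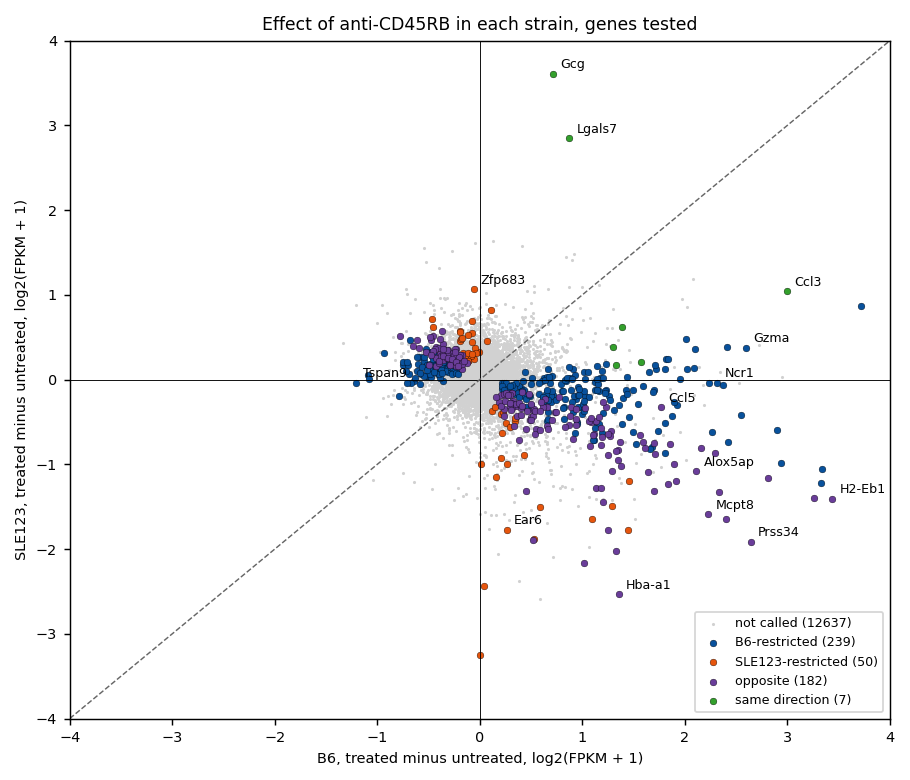
Treatment effect in SLE123 (y axis) against treatment effect in B6 (x axis), both as treated minus untreated log2(FPKM + 1), for the 13115 genes tested, with each point a gene and coloured points the 478 called genes. The dashed line marks equal effects, and most of the 312 genes below it lie to the right of 0 on the B6 axis.

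Most genes with a negative interaction rose in B6 and fell, or did not move, in SLE123. The 117 of them in the opposite class had a median difference of 0.88 in B6 and -0.50 in SLE123, and the 167 restricted to B6 had 0.96 and -0.14. Genes with a positive interaction changed by less. The 65 in the opposite class had medians of -0.31 in B6 and 0.28 in SLE123, and the 72 restricted to B6 had -0.49 and 0.13.

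The number of calls depended on single mice. Without any 1 of the 6 B6 mice or the 3 treated SLE123 mice it was 205 to 306, and the lowest count was without untreated B6 replicate 4. It was 2917, with 1981 positive, without untreated SLE123 replicate 1, and 497 and 400 without untreated SLE123 replicates 2 and 3. In every one of the 12 fits that left out a mouse, 183 genes were called, 150 of them negative and 33 positive, and 91 of these were in the opposite class, 78 restricted to B6 and 8 restricted to SLE123. The genes described below were among these 183 unless the number of fits is stated.

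**Figure D2:**
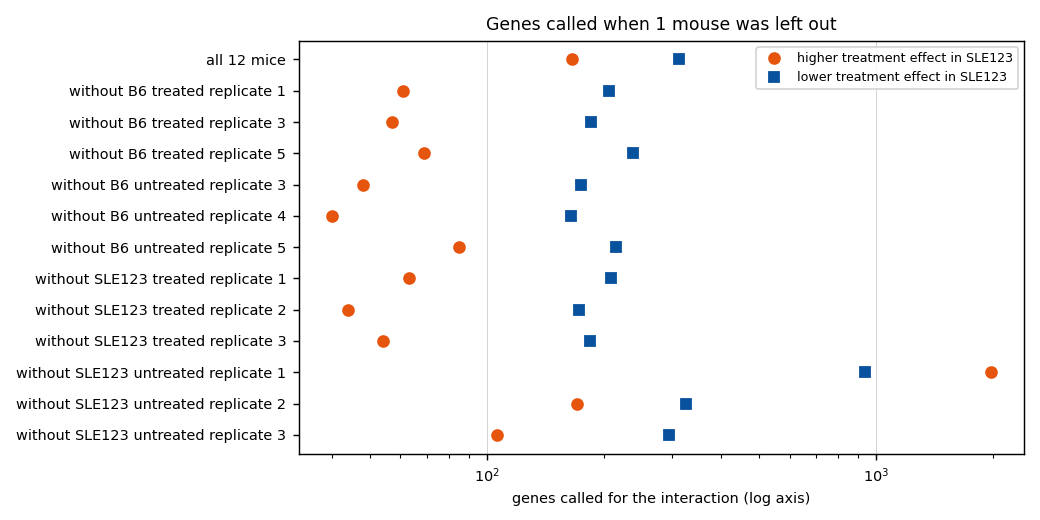
Number of genes called for the interaction (x axis, log scale) with all 12 mice and after leaving out each mouse in turn (y axis), with circles for positive and squares for negative interactions. Negative calls outnumber positive ones (312 against 166 with all mice) except without untreated SLE123 replicate 1, where 1981 of 2917 are positive.

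Granulocyte genes were among the opposite responses. Mcpt8 (chr14:56082166-56085273, GRCm38), a granule protease of basophils, was at 0.362, 0.259 and 0.581 FPKM in untreated B6 mice and at 5.09, 4.14 and 7.93 FPKM in treated ones. It was at 26, 30.9 and 27.3 FPKM in SLE123 mice without treatment and at 8.96, 7.08 and 10.2 FPKM with it. No groups of either strain overlapped, and the order of the groups reversed between the strains. The interaction was -3.82 ± 0.26 (SE, 3 mice a group here and below), with a limma adjusted p of 9.64e-05. Prss34 (chr17:25298394-25300165), a serine protease of mast cells and basophils, was at 0.561, 0.0909 and 0.358 FPKM in untreated and 6.79, 4.32 and 12.7 FPKM in treated B6 mice, against 55.9, 62 and 61 FPKM in untreated and 18.8, 13.1 and 14 FPKM in treated SLE123 mice. Its interaction was -4.56 ± 0.39 (adjusted p = 3.25e-04). The lowest untreated SLE123 mouse was above every treated mouse of either strain for both genes.

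Alox5ap (chr5:149264767-149288153) had the smallest adjusted p of all genes (2.87e-05). It encodes the protein that presents arachidonic acid to 5-lipoxygenase in the synthesis of leukotrienes. In B6 it was at 3.2, 2.4 and 2.48 FPKM in untreated and 16.9, 15 and 13.1 FPKM in treated mice, and in SLE123 at 11.1, 15.5 and 13.6 FPKM in untreated and 5.65, 5.29 and 6.34 FPKM in treated mice. The untreated SLE123 mice and the treated B6 mice covered overlapping ranges, and the other groups lay below them. The interaction was -3.19 ± 0.18.

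Of 13 tested markers of basophils, mast cells and eosinophils, 10 were called and all 10 were negative, with a median interaction of -1.36 against 0.043 over all genes tested. Prg2, the major basic protein of eosinophil granules, differed by 1.33 in B6 and by -2.02 in SLE123 (adjusted p = 0.00188). Fcer1a, the ligand-binding chain of the high-affinity IgE receptor, differed by 1.19 and -0.68 (adjusted p = 0.0094). The immunoglobulin E constant region Ighe, chosen after its values were seen, was at 0.0456, 0 and 0 FPKM in untreated and 1.19, 2.43 and 0.875 FPKM in treated B6 mice, and at 10.4, 11.5 and 9.8 FPKM in untreated and 1.01, 3.12 and 3.65 FPKM in treated SLE123 mice (interaction -3.03 ± 0.41, adjusted p = 0.00346). The immunoglobulin heavy chain and the receptor that binds it thus both moved up in B6 and down in SLE123.

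**Figure D3:**
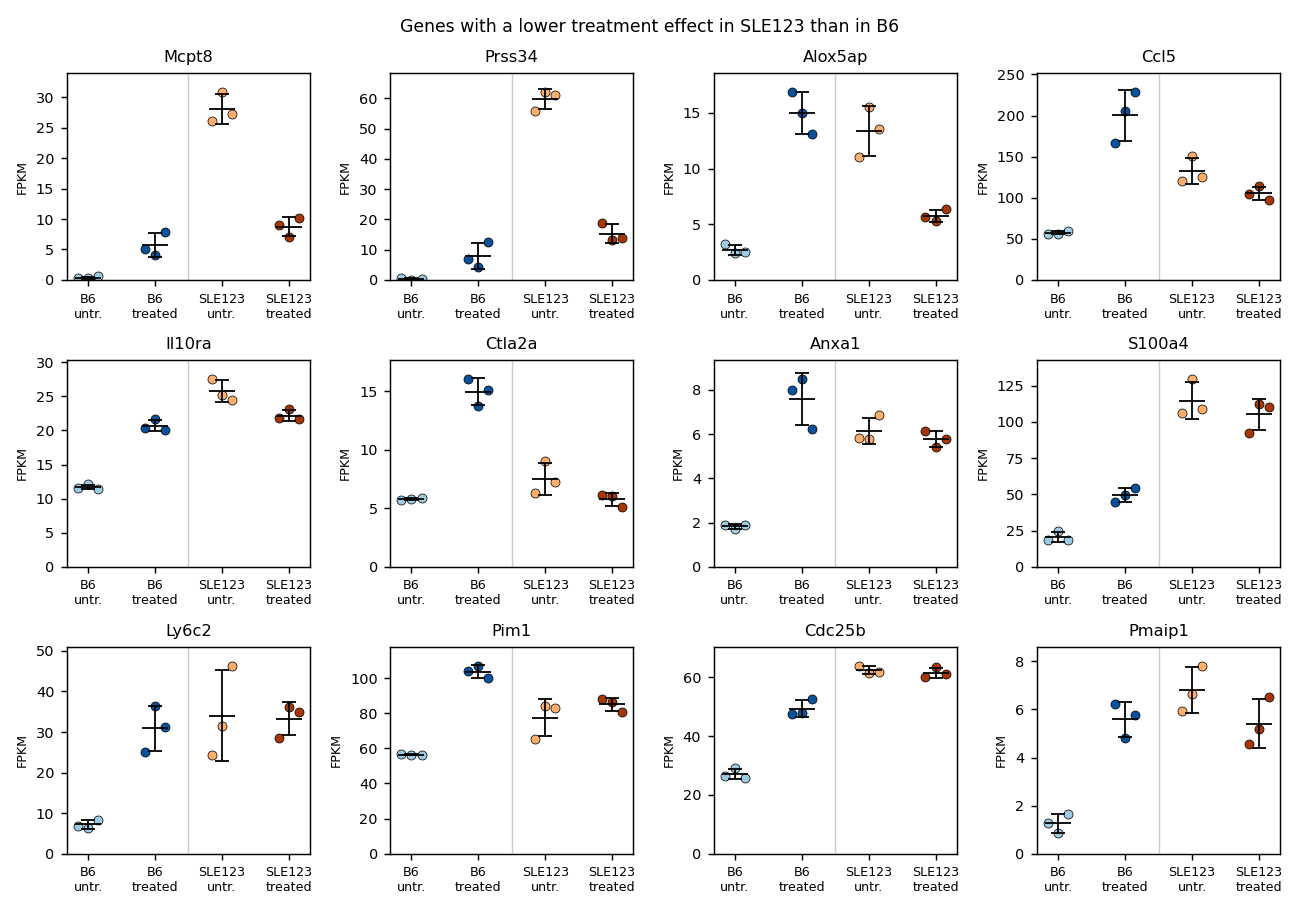
FPKM (y axis) in each mouse of the 4 groups (x axis) for genes with a lower treatment effect in SLE123, with 1 panel a gene, each point a mouse and bars the mean ± SD of 3 mice. Mcpt8, Prss34 and Alox5ap are higher in treated than untreated mice in B6 and lower in treated than untreated mice in SLE123.

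Markers of B cells, myeloid cells and erythroid cells also had negative calls. Of 112 tested genes on the lists of cells other than CD4+ T cells, 43 were called, 42 of them negative, and of the 478 calls 391 were on no list. Among B cell markers 10 of 16 tested were called, all negative, with a median interaction of -2.66, and 6 to 14 were called when 1 mouse was left out. The genes of the class II antigen-presenting molecules, H2-Aa, H2-Ab1 and H2-Eb1, had the interactions -4.66 ± 0.70, -4.54 ± 0.65 and -4.84 ± 0.70. H2-Eb1 was at 2.98, 0.70 and 1.94 FPKM in untreated and 31.7, 31 and 23.3 FPKM in treated B6 mice, and at 24.2, 29.6 and 122 FPKM in untreated and 15.2, 16.4 and 17.1 FPKM in treated SLE123 mice (adjusted p = 0.00449). Untreated SLE123 replicate 3 was the highest of all mice for this gene by a wide margin. Cd74, the invariant chain that class II molecules bind in the endoplasmic reticulum, rose in B6 from 12.7, 7.92 and 12.8 FPKM to 98.6, 101 and 73.6 FPKM and overlapped between untreated (199.6, 327 and 675 FPKM) and treated (122, 209 and 220.1 FPKM) SLE123 mice, with an interaction of -3.92 ± 0.54 (adjusted p = 0.00364). Cd79a, a signaling chain of the B cell receptor chosen after its values were seen, differed by 1.83 in B6 and -1.23 in SLE123 (adjusted p = 0.00763).

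Myeloid markers gave 10 negative calls of 16 tested, with a median interaction of -1.86. Tyrobp, the adaptor DAP12 of activating receptors on myeloid and NK cells, was at 4.51, 1.27 and 2.75 FPKM in untreated and 28, 24.3 and 21.2 FPKM in treated B6 mice, and at 11.3, 14.5 and 22.8 FPKM in untreated and 6.74, 6.77 and 5.7 FPKM in treated SLE123 mice. Its interaction was -3.97 ± 0.41 (adjusted p = 8.47e-04). Treated B6 and untreated SLE123 mice were thus the high groups, as they were for Alox5ap. Fcer1g, the shared gamma chain of Fc receptors, differed by 2.30 in B6 and -0.86 in SLE123 (adjusted p = 0.00178). Mpeg1, a pore-forming protein of macrophages, differed by 2.16 and -0.81 (adjusted p = 0.0088), and Lyz2, lysozyme, by 3.34 and -1.05 (adjusted p = 0.00653). Spi1, the transcription factor PU.1 of myeloid and B cells and a gene chosen after its values were seen, differed by 1.61 and -0.80 (adjusted p = 0.00255). By the rule above, the chemokine genes Ccl6 and Ccl9 moved in B6 alone. Ccl6 was at 0.732, 0.0384 and 0.0431 FPKM in untreated and 12.4, 5.85 and 7.43 FPKM in treated B6 mice, and at 1.76, 1.97 and 3.47 FPKM in untreated and 1.77, 0.995 and 0.909 FPKM in treated SLE123 mice (interaction -3.50 ± 0.41, adjusted p = 0.00178). Ccl9 had an interaction of -2.22 ± 0.25 (adjusted p = 0.00133). Its SLE123 groups did not overlap either, at 1.75, 1.64 and 1.58 FPKM in untreated and 1.54, 0.971 and 1.02 FPKM in treated mice (limma unadjusted p = 0.117).

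Erythroid and platelet genes gave 6 negative calls of 13 tested, with a median of -1.27. Hba-a1, an alpha globin gene, was at 0.266, 0.633 and 0.889 FPKM in untreated and 1.9, 5.33 and 2.55 FPKM in treated B6 mice, against 21.3, 15.5 and 25.5 FPKM in untreated and 8.07, 1.21 and 1.48 FPKM in treated SLE123 mice (interaction -3.89 ± 0.67, adjusted p = 0.0104). Its near-identical copy Hba-a2 can share reads with it, which makes the value of either gene uncertain, and the same holds for Hbb-bs (interaction -3.18 ± 0.58, adjusted p = 0.0139) and Hbb-bt. Of the platelet chemokine genes, Ppbp rose in B6 alone, from 0.689, 0.0512 and 0.173 FPKM to 7.92, 3.62 and 6.0 FPKM, and was at 0.056, 0.0991 and 0.235 FPKM in untreated and 0, 0.147 and 0.101 FPKM in treated SLE123 mice (interaction -2.43 ± 0.32, adjusted p = 0.00338). Pf4 differed by 1.57 in B6 and -0.65 in SLE123 (adjusted p = 0.0101).

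Markers of CD8 T cells and NK cells had another pattern, with 5 negative calls of 13 tested and all 5 restricted to B6. In B6, 11 of the 13 moved up and 0 moved down, and in SLE123 4 moved up and 0 moved down. The shares moving up among all genes tested were 10.7% in B6 and 10.3% in SLE123. Ncr1, the NK cell receptor NKp46, was at 0.29, 0.259 and 0.499 FPKM in untreated and 5.42, 5.35 and 6.4 FPKM in treated B6 mice, and at 0.202, 0.215 and 1.1 FPKM in untreated and 0.636, 0.39 and 0.255 FPKM in treated SLE123 mice. Its interaction was -2.35 ± 0.28 (adjusted p = 0.0019). All SLE123 mice stayed below the lowest treated B6 mouse. The Ly49 receptor genes Klra7 (-1.95 ± 0.31, adjusted p = 0.00757) and Klra8 (-1.62 ± 0.28, adjusted p = 0.010) belong to a family of close copies that can share reads, and both rose in B6 alone. No plasma cell marker of 12 tested was called by limma, with 5 at an unadjusted p under 0.05, none called by voom on recovered fragments and a median interaction of -0.90.

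As mean log2(FPKM + 1) over a list, basophil, mast cell and eosinophil markers lay at 0.547 to 0.63 in untreated and 1.33 to 1.62 in treated B6 mice, and at 2.31 to 2.55 in untreated and 1.71 to 1.8 in treated SLE123 mice. B cell markers lay at 0.747 to 1.06 and 2.2 to 2.51 in B6, and at 2.8 to 4.38 and 2.38 to 2.64 in SLE123. Myeloid markers lay at 1.09 to 1.34 and 2.29 to 2.51 in B6, and at 2.2 to 2.91 and 1.79 to 2.11 in SLE123. Within each strain none of these ranges overlapped between untreated and treated mice. Erythroid and platelet markers lay at 0.89 to 1.02 and 1.55 to 1.98 in B6, and overlapped in SLE123 at 1.9 to 2.55 and 1.32 to 1.91. CD8 and NK markers lay at 1.55 to 1.68 and 2.69 to 2.93 in B6, and at 1.59 to 1.73 and 1.85 to 2.05 in SLE123. These levels moved with the negative interactions described above and below, and their part in them was not tested. In bulk RNA a change in the number of cells of a type cannot be told apart from a change in RNA per cell.

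**Figure D4:**
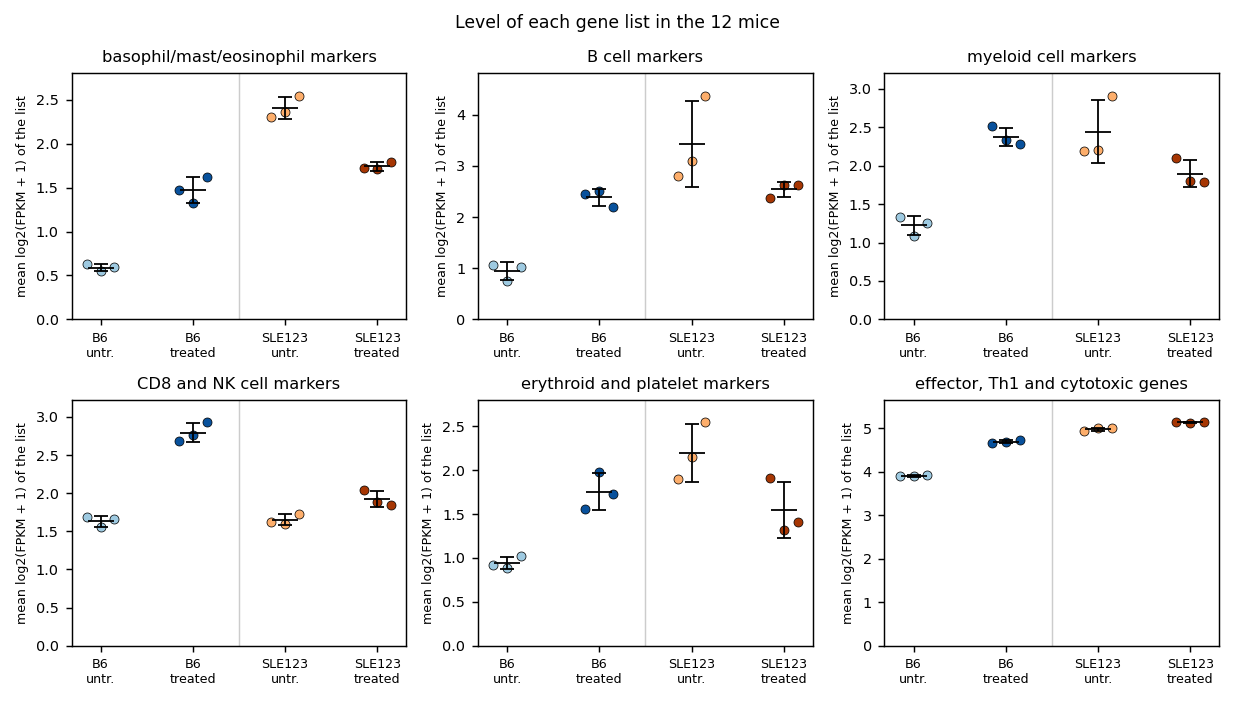
Mean log2(FPKM + 1) over each gene list (y axis) in each mouse of the 4 groups (x axis), with each point a mouse and bars the mean ± SD of 3 mice. Basophil, B cell and myeloid lists are higher in treated than untreated B6 mice and lower in treated than untreated SLE123 mice, and the effector list is at 3.89 to 3.93 in untreated B6 mice against 4.66 to 5.14 in all others.

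Genes that T cells themselves are known to express were also among the opposite responses. Ccl5 (chr11:83525778-83530518), a chemokine of memory and cytotoxic T cells, was at 56.3, 56.4 and 59.8 FPKM in untreated and 166, 205 and 229 FPKM in treated B6 mice, and at 121, 151 and 126 FPKM in untreated and 105, 114 and 97.6 FPKM in treated SLE123 mice (interaction -2.09 ± 0.16, adjusted p = 2.32e-04). Il10ra (chr9:45253837-45269149), the ligand-binding chain of the receptor for the regulatory cytokine IL-10, was at 11.6, 12.1 and 11.5 FPKM in untreated and 20.4, 21.7 and 20.1 FPKM in treated B6 mice, and at 27.6, 25.3 and 24.5 FPKM in untreated and 21.8, 23.1 and 21.6 FPKM in treated SLE123 mice (interaction -0.98 ± 0.083, adjusted p = 3.25e-04). For both genes the B6 difference was the larger and the SLE123 groups lay close together without overlap. Ctla2a, an inhibitor of cathepsin-type proteases, was at 5.73, 5.8 and 5.84 FPKM and 16.1, 13.7 and 15.1 FPKM in B6, and at 6.35, 9.0 and 7.21 FPKM and 6.14, 6.03 and 5.08 FPKM in SLE123 (interaction -1.56 ± 0.15, adjusted p = 6.70e-04). Its treated B6 mice stood above all 9 other mice. Cxcr4 and Lmna were chosen after their values were seen. Cxcr4, the receptor for the homing chemokine CXCL12, differed by 0.63 in B6 and -0.22 in SLE123 (adjusted p = 0.00283), and Lmna, which encodes nuclear lamins A and C, by 0.66 and -0.54 (adjusted p = 6.88e-04).

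Heat shock proteins and cytosolic chaperones had 3 negative calls of 29 tested, all in the opposite class, and a median interaction of -0.20 that turned to 0.0051 on TPM values, where 1 was called. Hsph1, a nucleotide exchange factor of the Hsp70 system, was at 18.8, 14.1 and 23 FPKM and 33.4, 40.9 and 33.9 FPKM in untreated and treated B6 mice, and at 25.4, 31.6 and 34 FPKM and 24.9, 22 and 23.7 FPKM in untreated and treated SLE123 mice (interaction -1.28 ± 0.22, adjusted p = 0.0107). The Hsp40 co-chaperones Dnaja1 (-0.87 ± 0.15, adjusted p = 0.00985) and Dnajb1 (-0.59 ± 0.12, adjusted p = 0.0261) shared its directions, and Dnajb1 kept its call in 7 of 12 fits without 1 mouse. Neither co-chaperone kept its call under every other scaling.

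Among the lists of T cell functions, effector, Th1 and cytotoxic genes had the most calls. Of 37 tested, 14 were called and all 14 were negative, with a median interaction of -0.47 and 12 to 19 negative calls when 1 mouse was left out. In B6, 28 of the 37 moved up and 1 moved down, against 10.7% and 9.13% of all genes tested. In SLE123, 8 moved up and 2 moved down, against 10.3% and 3.98%. The mean of the list was 3.89 to 3.93 in untreated and 4.66 to 4.72 in treated B6 mice, and 4.93 to 5 in untreated and 5.12 to 5.14 in treated SLE123 mice. Untreated SLE123 mice were thus already above treated B6 mice. The list holds genes that NK cells express too, whose markers rose in the same B6 mice.

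Anxa1 (chr19:20373428-20390944), a phospholipid-binding protein known for its anti-inflammatory action, was at 1.89, 1.72 and 1.89 FPKM in untreated and 8.02, 8.5 and 6.25 FPKM in treated B6 mice, and at 5.82, 5.79 and 6.85 FPKM in untreated and 6.14, 5.42 and 5.77 FPKM in treated SLE123 mice (interaction -1.67 ± 0.15, adjusted p = 3.36e-04). Anxa2 (chr9:69453620-69491795), a related annexin of the cell membrane, was at 11.1, 11.7 and 12.3 FPKM and 27.7, 28.2 and 30.8 FPKM in B6, and at 43.7, 49.4 and 44.1 FPKM and 48.7, 54.7 and 52.5 FPKM in SLE123 (interaction -1.05 ± 0.099, adjusted p = 5.11e-04). Treated B6 mice reached the level of SLE123 mice for Anxa1 and stayed below it for Anxa2. Gzma, the protease granzyme A of cytotoxic granules, was at 1.48, 0.819 and 1.27 FPKM and 12.5, 7.51 and 18.8 FPKM in B6, and at 21.6, 23 and 19.8 FPKM and 31.7, 25.6 and 27.7 FPKM in SLE123 (interaction -2.22 ± 0.34, adjusted p = 0.00596). The chemokine gene Ccl4 differed by 2.10 in B6 and 0.36 in SLE123 (adjusted p = 0.0117), and Klrg1, an inhibitory receptor of effector and regulatory T cells, by 1.65 and 0.094 (adjusted p = 0.00683). S100a4 and Lgals3 were chosen after their values were seen. S100a4, a calcium-binding protein of memory T cells, was at 18.8, 24.5 and 18.7 FPKM and 44.9, 49.4 and 54.4 FPKM in B6, and at 106, 129.7 and 109 FPKM and 92.5, 113 and 110.2 FPKM in SLE123 (interaction -1.35 ± 0.17, adjusted p = 0.0030). Lgals3, the glycan-binding galectin-3, differed by 1.82 and 0.25 (adjusted p = 0.00642).

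Ly6c2, a surface protein of memory T cells and monocytes, was the only call among 22 genes of naive T cells and lymph node homing. It was at 6.85, 6.4 and 8.37 FPKM and 25.1, 36.4 and 31.1 FPKM in untreated and treated B6 mice, and at 24.3, 31.6 and 46.3 FPKM and 28.6, 36.2 and 34.9 FPKM in untreated and treated SLE123 mice (interaction -1.94 ± 0.29, adjusted p = 0.00535). The other genes of that list had no call, and the median interaction of the list was 0.30.

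A few other genes that moved in B6 alone follow. Cdc25b (chr2:131186949-131198497), a phosphatase that activates cyclin-dependent kinases, was at 26.5, 29.2 and 25.7 FPKM in untreated and 47.4, 47.9 and 52.7 FPKM in treated B6 mice, and at 63.9, 61.6 and 61.8 FPKM in untreated and 60.0, 63.4 and 61.1 FPKM in treated SLE123 mice (interaction -0.86 ± 0.086, adjusted p = 6.70e-04). Myo1f, an unconventional myosin of leukocytes, differed by 0.69 in B6 and -0.038 in SLE123 (adjusted p = 0.00175). For both genes the 6 SLE123 mice lay above the treated B6 mice whether treated or not. Pim1, a kinase induced by cytokine signaling, was at 56.7, 56.1 and 56.4 FPKM and 104, 107 and 100.1 FPKM in B6, and at 65.1, 84.1 and 83 FPKM and 87.9, 86.7 and 80.8 FPKM in SLE123 (interaction -0.72 ± 0.12, adjusted p = 0.00972). Pim1, Il10ra and Jak3 were the 3 calls among 39 genes of cytokine receptors, JAK-STAT and SOCS, and Jak3, the kinase of the common gamma chain, was the positive one (0.51 ± 0.12, adjusted p = 0.041), called in 2 of 12 fits.

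The genes Pmaip1 and Bbc3, which encode the pro-apoptotic proteins Noxa and Puma, were the 2 calls among 31 genes of apoptosis and survival, against 3.64% of all genes. Pmaip1 was at 1.27, 0.878 and 1.67 FPKM and 6.21, 4.8 and 5.75 FPKM in untreated and treated B6 mice, and at 5.95, 6.63 and 7.82 FPKM and 4.56, 5.17 and 6.51 FPKM in untreated and treated SLE123 mice (interaction -1.83 ± 0.22, adjusted p = 0.0019). Bbc3 differed by 1.02 in B6 and -0.37 in SLE123 (adjusted p = 0.0261) and was called in 8 of 12 fits. Spry2, an inhibitor of Ras and ERK signaling chosen after its values were seen, was at 1.75, 1.48 and 1.64 FPKM and 5.66, 5.74 and 6.96 FPKM in B6, and at 0.90, 1.03 and 1.36 FPKM and 1.05, 1.4 and 0.968 FPKM in SLE123 (interaction -1.40 ± 0.16, adjusted p = 0.00178). Treated B6 mice were the only group above 2 FPKM for Spry2. Among glycolysis and Krebs cycle genes, 2 of 47 tested were called, a share near the 3.64% of all genes, and both were negative and restricted to B6. Idh1, the cytosolic isocitrate dehydrogenase, was at 3.39, 3.31 and 2.97 FPKM and 6.6, 5.49 and 6.9 FPKM in B6, and at 4.57, 4.65 and 5.49 FPKM and 4.46, 4.52 and 5.07 FPKM in SLE123 (interaction -0.84 ± 0.14, adjusted p = 0.00772). Slc16a3, the lactate exporter MCT4, had an interaction of -0.58 ± 0.14 (adjusted p = 0.0455) and was called in 2 of 12 fits.

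Positive interactions in the opposite class were smaller than negative ones, as the medians above show. Nsun3 (chr16:62732444-62786818), a methyltransferase of the mitochondrial methionine tRNA, was at 5.06, 4.57 and 4.48 FPKM in untreated and 3.25, 3.32 and 3.13 FPKM in treated B6 mice, and at 3.86, 3.27 and 3.34 FPKM in untreated and 4.95, 5.04 and 4.62 FPKM in treated SLE123 mice (interaction 0.82 ± 0.11, adjusted p = 0.00338). Treated SLE123 mice reached the range of untreated B6 mice, and treated B6 mice came down to the lowest untreated SLE123 mice. Zbtb25 (chr12:76347782-76369602), a zinc finger transcription factor, was at 16.6, 17.4 and 17.1 FPKM and 13.1, 12.1 and 12.6 FPKM in B6, and at 10.3, 9.31 and 8.69 FPKM and 11.8, 11.6 and 11.4 FPKM in SLE123 (interaction 0.68 ± 0.091, adjusted p = 0.00345). Rrp1b, a nucleolar protein of ribosome biogenesis and the only call of 40 in that list, was at 12.2, 13.7 and 13.3 FPKM and 9.12, 9.51 and 10.2 FPKM in B6, and at 11.3, 11.3 and 11.1 FPKM and 14, 13.1 and 13.2 FPKM in SLE123 (interaction 0.64 ± 0.087, adjusted p = 0.00359). In each of these genes untreated B6 mice stood above untreated SLE123 mice.

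Ddx11, a DNA helicase of sister chromatid cohesion, was at 11.5, 11.5 and 13 FPKM and 9.49, 8.57 and 9.7 FPKM in untreated and treated B6 mice, and at 8.56, 8.05 and 8.07 FPKM and 10.5, 10.4 and 10.2 FPKM in untreated and treated SLE123 mice (interaction 0.64 ± 0.095, adjusted p = 0.00513). Rab37, a small GTPase of vesicle traffic, differed by -0.50 in B6 and 0.18 in SLE123 (adjusted p = 0.00425). Rundc3b, a RUN domain protein, differed by -0.53 and 0.33 (adjusted p = 0.00621). A further 4 opposite genes were chosen after their values were seen. Trmu, which thiolates mitochondrial tRNAs, differed by -0.43 and 0.16 (adjusted p = 0.00835). Elac2, which trims the 3′ end of tRNA precursors, differed by -0.20 and 0.18 (adjusted p = 0.0138) and did not keep its call under every other scaling. Supv3l1, a mitochondrial RNA helicase, differed by -0.30 and 0.25 (adjusted p = 0.0262) and kept its call in 6 of 12 fits. Tespa1, which takes part in T cell receptor signaling during thymocyte selection, was at 46.2, 46.9 and 48.6 FPKM and 36.4, 36.5 and 36.6 FPKM in B6, and at 36.3, 30.3 and 29.7 FPKM and 36.8, 39.2 and 37.6 FPKM in SLE123 (interaction 0.60 ± 0.098, adjusted p = 0.0087).

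**Figure D5:**
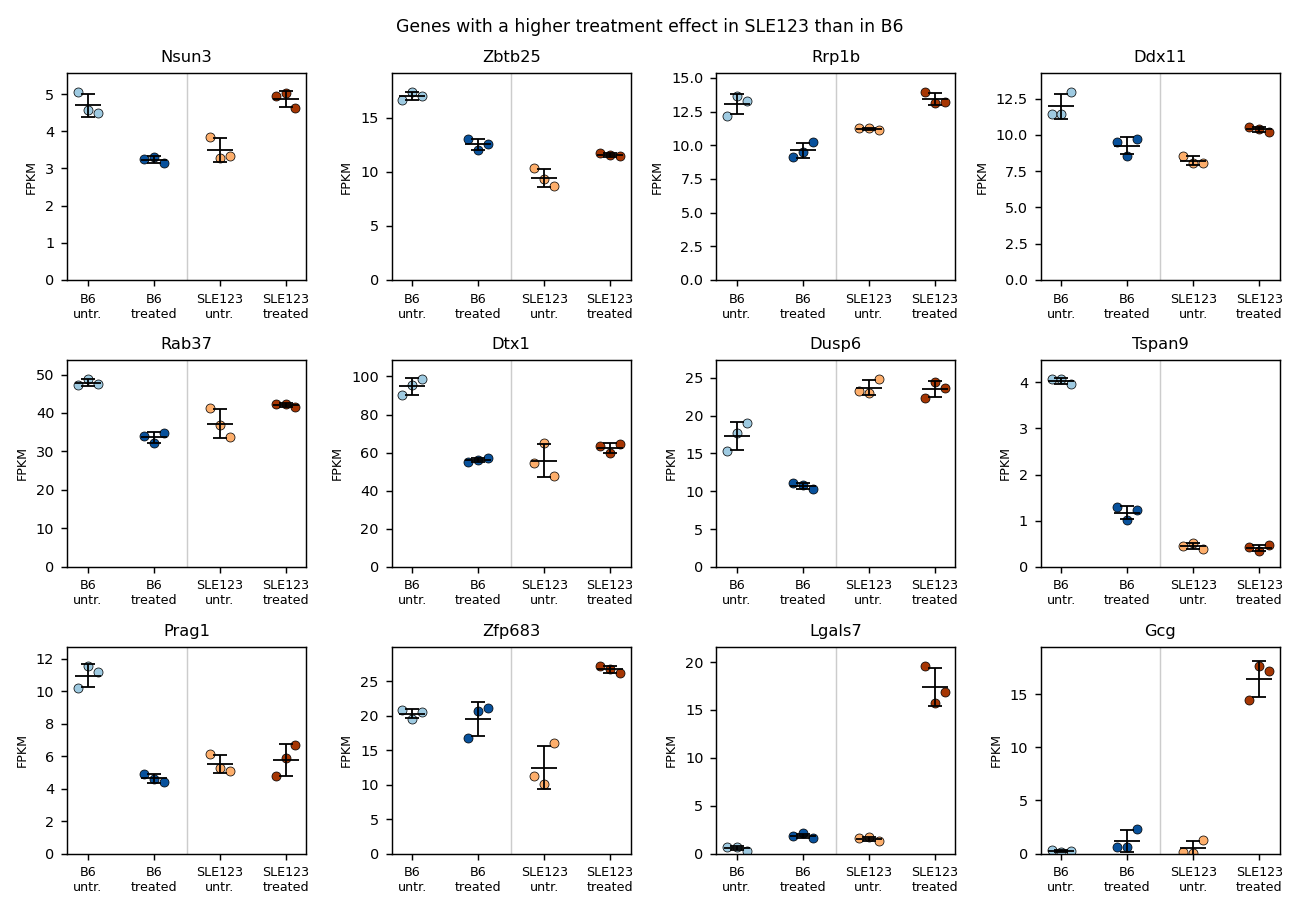
FPKM (y axis) in each mouse of the 4 groups (x axis) for genes with a higher treatment effect in SLE123, with 1 panel a gene, each point a mouse and bars the mean ± SD of 3 mice. Nsun3, Zbtb25, Rrp1b, Ddx11 and Rab37 fall in B6 and rise in SLE123, and Tspan9 and Dusp6 fall in B6 alone.

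The 72 genes with a positive interaction that moved in B6 alone included membrane and signaling proteins. Tspan9 (chr6:127961396-128143594), a tetraspanin of the cell membrane, was at 4.07, 4.07 and 3.95 FPKM in untreated and 1.29, 1.01 and 1.23 FPKM in treated B6 mice, and at 0.444, 0.518 and 0.388 FPKM in untreated and 0.42, 0.347 and 0.471 FPKM in treated SLE123 mice (interaction 1.17 ± 0.12, adjusted p = 8.47e-04). SLE123 mice were below 1 FPKM in both groups, so that a fall of as many FPKM as in B6 could not occur there. Prag1, a pseudokinase scaffold, was at 10.2, 11.6 and 11.2 FPKM and 4.92, 4.59 and 4.39 FPKM in B6, and at 6.16, 5.29 and 5.08 FPKM and 4.76, 5.91 and 6.71 FPKM in SLE123 (interaction 1.14 ± 0.15, adjusted p = 0.00345). Dtx1, a ubiquitin ligase of the Notch pathway with a known role in T cell anergy, was at 90.2, 95.4 and 98.7 FPKM and 55, 56.1 and 57.3 FPKM in B6, and at 54.6, 65 and 47.7 FPKM and 63.7, 59.6 and 64.3 FPKM in SLE123 (interaction 0.92 ± 0.13, adjusted p = 0.00425). Treated B6 mice came down to the range of the SLE123 mice for Dtx1, and to the low end of that range or below it for Prag1.

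Dusp6, the phosphatase that inactivates ERK, was at 15.3, 17.8 and 19 FPKM and 11, 10.8 and 10.3 FPKM in untreated and treated B6 mice, and at 23.3, 22.9 and 24.9 FPKM and 22.3, 24.4 and 23.7 FPKM in untreated and treated SLE123 mice (interaction 0.63 ± 0.11, adjusted p = 0.00948). Here the fall in B6 went away from the SLE123 level. Slc16a5, a monocarboxylate transporter, was at 22.5, 21.5 and 26.9 FPKM and 11.9, 11.9 and 11.6 FPKM in B6, and at 4.68, 3.98 and 2.26 FPKM and 4.87, 4.74 and 4.24 FPKM in SLE123 (interaction 1.25 ± 0.24, adjusted p = 0.0164). Pspc1, a paraspeckle RNA-binding protein, differed by -0.52 in B6 and 0.048 in SLE123 (adjusted p = 0.011), and Apol7e, an apolipoprotein L gene, by -0.59 and 0.27 (adjusted p = 0.00995). Crtam, a receptor of activated cytotoxic lymphocytes chosen after its values were seen, differed by -0.57 and 0.072 (adjusted p = 0.0124). Among regulatory T cell genes, 2 of 22 tested were called, Klrg1 with a negative and the receptor gene Gpr83 with a positive interaction (0.69 ± 0.16, adjusted p = 0.0411, 2 of 12 fits). Immediate early and activation genes had 2 calls of 31 tested, Dusp6 and the stress-response gene Ier3 (-1.08 ± 0.24, adjusted p = 0.0338, 4 of 12 fits). Of all genes tested, 3.64% were called.

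Of the 60 metabolic genes that the study listed, all 60 had an interaction above 0 and 8 were called, with a median of 0.37. The authors chose that list on these B6 mice, so its direction is not independent evidence. In B6, 43 of the 60 moved down and 0 moved up, against 9.13% and 10.7% of all genes tested. In SLE123, 11 moved up and 1 moved down, against 10.3% and 3.98%. The number called was 1 to 37 when 1 mouse was left out and 1 to 7 under the other scalings. Ehhadh, an enzyme of peroxisomal fatty acid oxidation, was at 6.49, 5.92 and 5.76 FPKM and 4.42, 4.39 and 4.41 FPKM in untreated and treated B6 mice, and at 4.67, 4.11 and 4.02 FPKM and 5.55, 4.77 and 5.93 FPKM in untreated and treated SLE123 mice (interaction 0.66 ± 0.12, adjusted p = 0.0132), and was called in all 12 fits. Gpam, the first enzyme of glycerolipid synthesis (0.81 ± 0.20, adjusted p = 0.0473), Adss, of AMP synthesis (0.67 ± 0.15, adjusted p = 0.0333), and Trdmt1, a tRNA methyltransferase (0.67 ± 0.16, adjusted p = 0.0455), were called in 2, 2 and 1 of 12 fits. Segments of T cell receptor genes had 10 positive and 1 negative call of 185 tested, all in V segments, and immunoglobulin segments had 12 negative calls of 222. Over all genes tested there were 478 calls of 13115. Zinc finger genes of the Zfp series had 5 positive and 1 negative call of 286, a smaller share than the 3.64% of all genes, and 235 of the 286 had an interaction above 0, against 7377 of all 13115.

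Of the 50 genes that moved in SLE123 alone, 23 had a negative and 27 a positive interaction, and 8 of the 50 were called in every fit without 1 mouse. Gfra4 (chr2:131039632-131043088), a receptor of the GDNF family, was at 3.51, 2.99 and 2.93 FPKM in untreated and 1.09, 1.01 and 1.1 FPKM in treated SLE123 mice, and at 0, 0.0617 and 0.0347 FPKM and 0.0823, 0.0341 and 0 FPKM in untreated and treated B6 mice (interaction -1.01 ± 0.13, adjusted p = 0.00255). All 6 B6 mice were near 0. Ear6, a ribonuclease of eosinophils with close copies in the genome, was at 3.18, 2.94 and 5.54 FPKM and 0.20, 0.357 and 0.672 FPKM in SLE123, and at 0, 0 and 0.139 FPKM and 0.165, 0.274 and 0.333 FPKM in B6 (interaction -2.03 ± 0.26, adjusted p = 0.00306). Prg3, another eosinophil granule protein, differed by -1.15 in SLE123 and 0.16 in B6 (adjusted p = 0.00453). These granule genes were low in B6 and fell with treatment in SLE123, beside the fall of Mcpt8, Prss34 and Prg2. Tspan13, a tetraspanin expressed at a higher level, was at 64.2, 72.6 and 73.8 FPKM and 54.7, 53 and 54.5 FPKM in SLE123, and at 64.8, 60.2 and 62.4 FPKM and 64.9, 69.3 and 70.0 FPKM in B6 (interaction -0.49 ± 0.087, adjusted p = 0.0124). Its B6 groups did not overlap either, with a limma unadjusted p of 0.0721, and it did not keep its call under every other scaling.

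Zfp683 (chr4:134053838-134058996), which encodes Hobit, a transcription factor of tissue-resident lymphocytes, rose in SLE123 alone. It was at 11.3, 10.1 and 16 FPKM in untreated and 27.3, 26.8 and 26.2 FPKM in treated SLE123 mice, and at 20.9, 19.5 and 20.5 FPKM and 16.7, 20.7 and 21.1 FPKM in untreated and treated B6 mice (interaction 1.13 ± 0.19, adjusted p = 0.00985). Treated SLE123 mice were above all 9 other mice, and untreated SLE123 mice were below all of them. The other positive genes of this class that the naming rule gave had smaller interactions and kept their calls in fewer fits without 1 mouse. Zdhhc13, a palmitoyltransferase (0.41 ± 0.080, adjusted p = 0.0198), kept it in 7 of 12 and Elk1, a transcription factor downstream of ERK (0.65 ± 0.13, adjusted p = 0.0218), in 6 of 12. Cln3 (0.33 ± 0.068, adjusted p = 0.0267) and Dock4 (0.64 ± 0.14, adjusted p = 0.0333) kept it in 4 of 12 each, and Adss, given above, in 2 of 12.

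In 7 genes both strains moved the same way and the size differed. Lgals7, galectin-7 of stratified epithelia, was at 0.74, 0.66 and 0.33 FPKM and 1.86, 2.11 and 1.66 FPKM in untreated and treated B6 mice, and at 1.6, 1.7 and 1.35 FPKM and 19.6, 15.7 and 16.9 FPKM in untreated and treated SLE123 mice (interaction 1.97 ± 0.17, adjusted p = 3.25e-04). Gcg, which encodes the pancreatic hormone glucagon, was at 0.342, 0.152 and 0.286 FPKM and 0.61, 0.618 and 2.35 FPKM in B6, and at 0.167, 0.0984 and 1.24 FPKM and 14.5, 17.7 and 17.1 FPKM in SLE123 (interaction 2.90 ± 0.43, adjusted p = 0.00513). The 3 treated SLE123 mice were far above all others for both genes. Gcg was the only call of 9 tested transcripts of pancreas, and the insulin genes Ins1 and Ins2 were at 0 in all 12 mice. The mean of that list of 24 was 0.725 to 1.37 on the log2(FPKM + 1) scale in treated SLE123 mice, and 0.178 to 1.07 in the other groups.

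Ifitm1, an interferon-induced membrane protein, was at 1.97, 2.07 and 1.55 FPKM in untreated and 6.27, 6.37 and 5.86 FPKM in treated B6 mice, and at 172, 177 and 161 FPKM in untreated and 196, 187 and 193 FPKM in treated SLE123 mice (interaction -1.16 ± 0.10, adjusted p = 3.25e-04). The strain difference in level was far larger than either treatment difference. Nrgn, a calmodulin-binding protein, was at 2.35, 1.98 and 1.88 FPKM and 8.02, 9.12 and 7.24 FPKM in B6, and at 12.3, 11.3 and 13.2 FPKM and 13.4, 14.6 and 15 FPKM in SLE123 (interaction -1.36 ± 0.13, adjusted p = 6.70e-04). Ccl3, a chemokine of activated T and NK cells, was at 1.13, 0.361 and 0.73 FPKM and 15.1, 7.97 and 16.8 FPKM in B6, and at 5.06, 6.85 and 6.74 FPKM and 16.8, 11.4 and 13.6 FPKM in SLE123 (interaction -1.96 ± 0.36, adjusted p = 0.014). Treated mice of the strains overlapped in Ccl3, while untreated mice did not.

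Lists for 20 groups of genes held no call by limma. Of their 891 tested genes, 159 (17.8%) had an unadjusted p under 0.05, against 25.1% of all genes, and 2 were called by voom on recovered fragments. T cell receptor signaling had the highest median of these lists, 0.23, with 14 of 35 genes at an unadjusted p under 0.05, none called by voom and 17 called without untreated SLE123 replicate 1. Chromatin regulators had a median of 0.22, with 25 of 81 at an unadjusted p under 0.05, 1 called by voom and 43 called without that mouse. Calcineurin, NFAT and CREB signaling had 10 of 35 at that level and 1 called by voom. The remaining lists without a call by limma were PI3K, AKT and mTOR signaling, NF-kB, interferon-stimulated genes, follicular helper T cell genes, glycosylation enzymes, cholesterol synthesis, translation factors, splicing, proteasome, ER stress, cell cycle, plasma cell markers, ribosomal proteins of the cytoplasm and of mitochondria, nuclear and mitochondrial genes of the respiratory chain, and histones. Interferon-stimulated genes moved up in both strains, 20 of 35 in B6 and 27 of 35 in SLE123, and cholesterol synthesis genes did so for 21 and 22 of 34. Of all genes tested, 10.7% moved up in B6 and 10.3% in SLE123. Cell adhesion and actin genes had 1 call of 40, Dock10, an activator of small GTPases (0.61 ± 0.14, adjusted p = 0.0428), in 1 of 12 fits, and liver transcripts had 1 call of 20, the apolipoprotein gene Apoe (-1.18 ± 0.24, adjusted p = 0.0228), in 7 of 12. Apoe did not follow the liver list, whose median interaction was 0.51. It was at 34.9, 45.0 and 64.9 FPKM in untreated SLE123 mice, where the mean of the list was 0.314 to 0.386 on the log2(FPKM + 1) scale.

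The gene of the antibody's target, Ptprc, was at 542, 510.2 and 507 FPKM in untreated and 479, 436 and 468 FPKM in treated B6 mice, and at 492, 328 and 377 FPKM in untreated and 498, 484 and 470.1 FPKM in treated SLE123 mice. Its interaction of 0.47 ± 0.17 did not pass the test (adjusted p = 0.131), and gene-level FPKM does not separate CD45RB from other isoforms. Transcripts of Cd4 were present in all 12 mice. B6 libraries ranged from 295 to 307 FPKM without treatment and from 272 to 283 FPKM with it. For SLE123 the range was 237 to 327 FPKM without treatment and 295 to 320.4 FPKM with it. Presence of Cd4 does not show that the libraries were free of other cells, and purity was not tested. In untreated SLE123 replicate 3, immunoglobulin genes took 12.2% of the fragments and Cd74 was at 675 FPKM. The mean of the B cell list was 4.38 in that mouse. The interactions of Cd4 (0.31 ± 0.14, adjusted p = 0.207), Cd28 (0.45 ± 0.17, adjusted p = 0.138) and Trac (0.37 ± 0.15, adjusted p = 0.154) did not pass the test, nor did those of Cd3d, Cd3e, Cd3g, Lck, Trbc1 and Trbc2 (adjusted p = 0.386 to 0.969).

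The difference between the strains was smaller in treated than in untreated mice for 244 of the 312 genes with a negative and 108 of the 166 with a positive interaction, against 8166 of the 13115 tested. Of the 312 genes with a negative interaction, 285 were higher in untreated SLE123 than in untreated B6 mice and 141 in treated SLE123 than in treated B6 mice, and the median strain difference went from 1.08 to -0.098. Of the 166 with a positive interaction, 21 and then 127 were higher in SLE123, and the median went from -0.36 to 0.20. These differences are made of the same values as the interaction and are a description. The regions Sle1, Sle2 and Sle3 lie on chromosomes 1, 4 and 7, where 3.13%, 2.52% and 5.15% of tested genes were called, against 3.64% of all genes. These shares are of whole chromosomes, of which the regions are only parts. Chromosomes 14 and 6, which hold none of the regions, had 5.04% and 4.69%, and chromosome 16 had 1.98%.

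The CREB site TGACGTCA, a palindrome read alike on both strands, was searched in the 250 bases before the start of each gene in RefSeq (GRCm38.p6), since CREB and CRTC factors act downstream of T cell receptor signaling. These bases were at hand for 71% of tested genes. The site was in 2 of 117 promoters of genes with a positive interaction (1.71%), in 2 of 224 with a negative interaction (0.893%) and in 287 of all 9313 (3.08%). Its first 5 letters, TGACG, read on both strands and part of the full site, were in 26.5%, 15.2% and 31.3%. Shown are the 3 of the 4 called genes with a full site whose adjusted p was lowest, as the 250 bases before the start, 5′ to 3′ on the strand of the gene, with the site in capitals. H2-Aa (chr17:34287824-34288073, minus strand) has the site 74 bases before its start, Ddx51 (chr5:110653201-110653450, plus strand), an RNA helicase of ribosome synthesis, 44 bases before, and Slc25a36 (chr9:97111042-97111291, minus strand), a mitochondrial carrier of pyrimidine nucleotides, 161 bases before.
H2-Aa: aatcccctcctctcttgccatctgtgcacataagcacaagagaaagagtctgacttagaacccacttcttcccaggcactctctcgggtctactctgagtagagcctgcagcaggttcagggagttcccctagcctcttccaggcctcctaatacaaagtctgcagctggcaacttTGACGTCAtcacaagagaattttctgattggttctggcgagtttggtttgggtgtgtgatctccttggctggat
Ddx51: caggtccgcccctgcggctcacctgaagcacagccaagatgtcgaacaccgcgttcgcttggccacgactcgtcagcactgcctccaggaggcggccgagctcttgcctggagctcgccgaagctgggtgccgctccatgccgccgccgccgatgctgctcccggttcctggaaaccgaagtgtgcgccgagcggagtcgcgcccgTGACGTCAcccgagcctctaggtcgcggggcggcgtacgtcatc
Slc25a36: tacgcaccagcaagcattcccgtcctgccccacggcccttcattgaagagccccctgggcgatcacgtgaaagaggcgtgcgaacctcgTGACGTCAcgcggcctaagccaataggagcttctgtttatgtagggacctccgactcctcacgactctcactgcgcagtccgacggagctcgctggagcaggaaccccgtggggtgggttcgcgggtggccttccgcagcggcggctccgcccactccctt
H2-Aa moved up in B6 and down in SLE123, from 3.4, 1.03 and 3.73 FPKM to 36.1, 35.7 and 26.4 FPKM and from 21.1, 25.3 and 104 FPKM to 13.1, 14.2 and 14.7 FPKM (adjusted p = 0.00577). Ddx51 moved the other way in each strain, with an interaction of 0.48 ± 0.11 (adjusted p = 0.0343, 3 of 12 fits), and Slc25a36 moved down in B6 alone (0.54 ± 0.12, adjusted p = 0.0402, 2 of 12 fits). The same letters thus stood before genes with opposite signs, and a match is a description of these letters only.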

How the data were processed

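RNA-Seq libraries of CD4+ T cells from 12 mice were assigned to 4 groups by their titles. What the authors deposited is an FPKM table of Ensembl genes by library, in which fragments are scaled to transcript length and library total. The submitters' processing notes name CASAVA 1.8, STAR and mm10, and the counting program, annotation and strandedness of the library kit are not given in the sources used here. Symbols were taken for 34490 of 35275 genes (97.8%) from GENCODE M21 (GRCm38).

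FPKM values were used as log2(FPKM + 1), on which differences of low genes are understated. Genes at 0.5 FPKM or more on average (13115) were fitted with limma 3.58.1 in R 4.3.3 (4 groups, eBayes with trend, 8 residual degrees of freedom), with Benjamini-Hochberg adjustment and a threshold of 0.05. The steps were tested on simulated data with a spread set per group, where genes with no planted interaction made up a larger part of the calls than the threshold allows. All 23230 genes above 0 (100%) gave whole fragments within 0.01, and so totals of 13562933 to 23641603 fragments (median 16827791). Without molecular identifiers these are not independent molecules, and floors cover counting error alone.

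Named genes were the 6 protein-coding genes with the smallest adjusted p in each class and sign (2 in the same-direction class), the 5 largest interactions of each sign, up to 4 called genes of each list with the largest interactions, and T cell markers. Others are stated to have been chosen after their values were seen. Of the genes that the rule gave, Tmcc2, Snx20, Zkscan8, Zfp27, Zfp526 and Zfp972 are not described above. They kept their calls in 2 to 5 of 12 fits without 1 mouse. The comparison and the 39 gene lists were chosen with earlier results of these data known. Alternatives were pseudocounts of 0.1 and 5, a filter of 1 FPKM or none, 4 other scalings, eBayes with no trend or robust, weights, voom, a minimum interaction of 0.5, the block, averaged replicates and each mouse left out in turn.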

Additional observations from a re-analysis of the deposited data

Results flagged for a closer look

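The treatment effect differed between the strains by the test of the interaction itself for 478 genes. Those named above with opposite movements and a negative interaction were Alox5ap (-3.19), Mcpt8 (-3.82), Ccl5 (-2.09), Il10ra (-0.98), Prss34 (-4.56), Ctla2a (-1.56), Lmna (-1.20), Tyrobp (-3.97), Fcer1g (-3.16), Prg2 (-3.35), Spi1 (-2.42), Cxcr4 (-0.86), Ighe (-3.03), H2-Eb1 (-4.84), H2-Aa (-4.66), Cd79a (-3.07), Mpeg1 (-2.97), Fcer1a (-1.87), Dnaja1 (-0.87), Pf4 (-2.22), Hba-a1 (-3.89), Hsph1 (-1.28), Hbb-bs (-3.18), Apoe (-1.18) and Dnajb1 (-0.59), on the log2(FPKM + 1) scale. With opposite movements and a positive interaction they were Nsun3 (0.82), Zbtb25 (0.68), Rrp1b (0.64), Rab37 (0.67), Ddx11 (0.64), Rundc3b (0.85), Trmu (0.59), Tespa1 (0.60), Ehhadh (0.66), Elac2 (0.38), Supv3l1 (0.55), Ddx51 (0.48) and Dock10 (0.61). Genes that moved in B6 alone were Anxa1 (-1.67), Anxa2 (-1.05), Cdc25b (-0.86), Ccl9 (-2.22), Myo1f (-0.72), Ccl6 (-3.50), Spry2 (-1.40), Pmaip1 (-1.83), Ncr1 (-2.35), S100a4 (-1.35), Ppbp (-2.43), Cd74 (-3.92), H2-Ab1 (-4.54), Ly6c2 (-1.94), Gzma (-2.22), Lgals3 (-1.57), Lyz2 (-4.40), Klrg1 (-1.56), Klra7 (-1.95), Idh1 (-0.84), Pim1 (-0.72), Klra8 (-1.62), Ccl4 (-1.74), Bbc3 (-1.39), Ier3 (-1.08) and Slc16a3 (-0.58) among the negative ones, and Tspan9 (1.17), Prag1 (1.14), Dtx1 (0.92), Dusp6 (0.63), Apol7e (0.85), Pspc1 (0.56), Crtam (0.64), Slc16a5 (1.25), Slc25a36 (0.54), Jak3 (0.51), Gpr83 (0.69), Trdmt1 (0.67) and Gpam (0.81) among the positive ones. Genes that moved in SLE123 alone were Gfra4 (-1.01), Ear6 (-2.03), Prg3 (-1.31) and Tspan13 (-0.49), and Zfp683 (1.13), Zdhhc13 (0.41), Elk1 (0.65), Cln3 (0.33), Dock4 (0.64) and Adss (0.67). Genes that moved the same way in both strains were Ifitm1 (-1.16), Nrgn (-1.36), Ccl3 (-1.96), Lgals7 (1.97) and Gcg (2.90). By the rule for moving, Ccl9, Lyz2, Gzma and Gpam were restricted to B6 though their SLE123 groups did not overlap either. Ear6, Tspan13, Zdhhc13, Elk1, Dock4 and Adss were restricted to SLE123 though their B6 groups did not overlap either. With 3 mice a group, no group was large enough for a test of single outlying mice.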

How the results depend on the processing

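Of the 16 alternatives beside those that left out a mouse, most kept the counts of genes within 1.5 times of those reported. Leaving out 1 mouse gave 205 to 2917 genes called, 40 to 1981 of them positive and 165 to 936 negative, with 95 to 856 in the opposite class, 87 to 648 restricted to B6, 12 to 1374 restricted to SLE123, 5 to 29 moving the same way and 103 to 313 with a shared effect. The highest count was without untreated SLE123 replicate 1, where the 2917 calls included all 478. Averaging treated SLE123 replicates 2 and 3, an alternative chosen after seeing the data, left 228 calls (51 positive, 177 negative), with 108 opposite, 103 restricted to B6, 13 restricted to SLE123 and 4 moving the same way. Rescaling without immunoglobulin genes gave 276 calls (61 positive), with 120, 133 and 15 in the first 3 classes. Array weights by mouse gave 985 calls (523 positive), with 279, 581 and 103. Centring gave 92 positive calls, TPM gave 16 genes moving the same way, and a separate spread per strain gave 30 genes restricted to SLE123 and 4 moving the same way. The causes were not tested.

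With the replicate number as a replicate block, 34 genes were called (2 positive, 32 negative), with 13 opposite, 15 restricted to B6, 3 restricted to SLE123, 3 moving the same way and 23 with a shared effect, in a fit with fewer residual degrees of freedom. Whether the numbers pair the mice is not known. In B6 only replicates 3 and 5 were in both groups. Deviations of same-numbered treated and untreated mice correlated at -0.14 and -0.094 in B6 and at 0.14, -0.16 and 0.27 in SLE123. Mice with unlike numbers gave -0.134 to 0.2 in B6 and -0.327 to 0.211 in SLE123. So few values, from deviations that sum to 0 within a group, cannot decide whether mice were paired. All called genes considered for naming kept their direction under every alternative, and 75 to 98 of 98 kept their call outside the block (95 of 95 at a filter of 1 FPKM), while 24 of 98 kept it with the block and 74 lost it.

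Among named genes, signs changed only for uncalled T cell markers near 0. Of the medians given above, that of heat shock proteins turned on TPM, and that of all genes turned to -0.010 on centring. The interaction of Cd3d, -0.013, turned to 0.19 on TPM, 0.18 on quantile-normalized values and 0.050 with array weights, and was -0.17 to 0.12 when 1 mouse was left out. The interaction of Trbc1 was -0.0079 to 0.20 and the interaction of Trbc2 was -0.024 to 0.32 when 1 mouse was left out, with the lowest value of both without untreated SLE123 replicate 3. Genes with few fragments, such as Gfra4 in B6, lie at the floor of 0.0634 to 0.111 FPKM, where a change is not detectable.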
